A study of Mus musculus with 16 samples.

Results

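The mitochondrial genome of the mouse carries 13 protein genes, and 10 of them are described here: mt-Nd1, mt-Nd2, mt-Nd4, mt-Nd5, mt-Nd6, mt-Cytb, mt-Co1, mt-Co2, mt-Co3 and mt-Atp6. They were taken by gene name from a liver count table of 53714 genes. The other 3, mt-Nd3, mt-Nd4l and mt-Atp8, are named where a result turns on them. Of the 10 genes, 7 had enough reads to be tested, and mt-Co2, mt-Co3 and mt-Atp6 did not. Those 3 had 4, 9 and 7 reads over all 16 libraries.

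These genes encode the membrane core of the machinery that makes ATP from the oxidation of fuel. The mt-Nd genes encode subunits of complex I, which takes electrons from NADH, mt-Cytb encodes the cytochrome b of complex III, the mt-Co genes encode the catalytic core of complex IV (cytochrome c oxidase), and mt-Atp6 encodes a part of the proton channel of ATP synthase. Apart from the proteins of this genome's protein genes, the subunits come from the nucleus. The genome is transcribed as long RNAs from both strands, which are cut at the tRNAs between the genes, so that neighbouring genes share a primary transcript; mt-Nd6 is the sole protein gene of the light strand. The liver meets the energy need of a fast largely by fatty acid oxidation, whose electrons enter this chain.

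The livers came from male mice aged 9 weeks, in a cross of 2 genotypes with 2 feeding states, and gave 4 groups of 4 libraries. Knockout (KO) livers carried the genotype Slc25a47hep-/- and their controls (WT) Slc25a47hep+/+, and every group had the strain label C57BL/6 Slc25a47tm1c(EUCOMM)Hmgu, an allele of the gene on the C57BL/6 background. Slc25a47 encodes a carrier protein of the inner mitochondrial membrane with high expression in liver, and the driver of the deletion is not given in the sources used here. The groups were fed KO, fed WT, fasted KO and fasted WT, where fed mice had chow and fasted mice went without food overnight. The labels do not say in words that each library is a separate mouse, so p-values measure the spread between these libraries, which may in part be technical.

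Between 19.6 and 27.3 M reads per library fell on genes. Slc25a47 itself stood at 126 ± 32.2 CPM in fed KO and 636 ± 154 CPM in fed WT livers, and at 261 ± 77.1 CPM in fasted KO and 949 ± 129 CPM in fasted WT livers (SD, n = 4 each), with no overlap by genotype. CPM are a gene's counts set against the gene reads of its library, on the usual scale after TMM scaling, which assumes that most genes do not differ between libraries. All 10 hepatocyte markers were detected in every group. Their summed level ranged from 89933 to 124407 CPM in fed KO and from 132411 to 142498 CPM in fed WT livers, and from 115729 to 134109 CPM in fasted KO and from 100118 to 145629.9 CPM in fasted WT livers. In whole liver, fewer cells of a type and less RNA per cell cannot be told apart. The 14 genes of pancreatic acinar cells reached 1787 CPM together in replicate 2 of fasted WT and 497 CPM in replicate 4, against 4.78 to 80.0 CPM in the other libraries.

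Reads were spread very unevenly over the mitochondrial genome. Apart from mt-Nd6 on the light strand, the protein genes with few reads lay side by side, and they serve different complexes. On the mitochondrial chromosome (M) of GRCm38, mt-Nd1 (ENSMUSG00000064341, 2751 to 3707), mt-Nd2 (ENSMUSG00000064345, 3914 to 4951) and mt-Co1 (ENSMUSG00000064351, 5328 to 6872) had 2744494, 3372384 and 8652660 reads over the 16 libraries. From mt-Co2 (ENSMUSG00000064354, 7013 to 7696) over mt-Atp6 (ENSMUSG00000064357, 7927 to 8607) and mt-Co3 (ENSMUSG00000064358, 8607 to 9390) to mt-Nd4l, 6 neighbouring genes had at most 75 reads each. After them, mt-Nd4 (ENSMUSG00000064363, 10167 to 11544), mt-Nd5 (ENSMUSG00000064367, 11742 to 13565) and mt-Cytb (ENSMUSG00000064370, 14145 to 15288) again had 1806330, 3011843 and 6082624 reads, and mt-Nd6 (ENSMUSG00000064368, 13552 to 14070, on the light strand) had 4373.

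The poorly read genes included core subunits of complex IV and of ATP synthase. mt-Co2 was listed at 0 reads in 13 of 16 libraries, mt-Co3 in 10 and mt-Atp6 in 11, and none of the 3 passed 3 reads in any library. A count of 0 allows up to 3 reads, which is 0.110 to 0.153 CPM at these depths and covers counting error only. Of the genes outside the 10, mt-Nd3 had 75 reads in all, mt-Atp8 had 2 and mt-Nd4l had 1. The ribosomal RNA genes mt-Rnr1 and mt-Rnr2, in libraries made from polyadenylated RNA, had 12 and 14.

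The same stretch of the mitochondrial genome lies as a copy on nuclear chromosome 1. The GENCODE M21 transcripts of GRCm38 hold 7 neighbouring pseudogenes between 24611535 and 24616197 on the reverse strand of chromosome 1, a block of 4663 bases, which runs from the end of mt-Co1 into mt-Nd4. Gm28661 matched mt-Co2 at 100% over 681 bases, Gm10925 matched mt-Atp6 at 100% over 678 bases and Gm28437 matched mt-Co3 at 100% over 783 bases. The 7 pseudogenes together had 63 reads over the 16 libraries, of which 45 were on Gm29216, the copy of the end of mt-Co1, and 7 on Gm28439, that of the start of mt-Nd4. A further copy of mt-Co2, Gm13341 on chromosome 2, matched it at 95.9% over 684 bases. Gm13341 had 1158 reads over the 16 libraries, with at most 93 in any library, against 4 for mt-Co2. The starts of mt-Co2 and mt-Co3 beside their chromosome 1 copies are given in the direction of the genes. Each pair is the same over the 90 bases printed.
mt-Co2: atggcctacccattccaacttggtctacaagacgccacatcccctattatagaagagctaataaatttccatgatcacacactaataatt
Gm28661: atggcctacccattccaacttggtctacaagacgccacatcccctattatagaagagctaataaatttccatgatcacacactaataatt
mt-Co3: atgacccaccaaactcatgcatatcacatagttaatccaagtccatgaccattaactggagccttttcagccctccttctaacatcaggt
Gm28437: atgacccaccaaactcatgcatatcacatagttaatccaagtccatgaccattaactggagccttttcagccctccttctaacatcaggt

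Genes with many reads also have nuclear copies. The block on chromosome 1 holds Gm28439, which matched mt-Nd4 at 100% over 876 bases, and Gm29216, which matched mt-Co1 at 99.8% over 483 bases with 1 mismatch. Copies elsewhere differ at some bases. Over the 16 libraries Gm13340, a copy of mt-Co1, had 380 reads, Gm11410 had 1 and Gm11408 had 0. The start of mt-Co1 and its copy Gm13340 on chromosome 2 (97.6% over 1545 bases), of mt-Cytb and Gm11410 on chromosome 4 (92.9% over 1142 bases) and of mt-Nd6 and Gm11408 on chromosome 4 (93.6% over 519 bases) differed at 3, 5 and 3 of 90 bases. Capitals mark the bases that differ within each pair, and each sequence is written in the direction of its gene, that of mt-Cytb from base 2.
mt-Co1: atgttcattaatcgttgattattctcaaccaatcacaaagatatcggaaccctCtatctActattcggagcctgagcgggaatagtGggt
Gm13340: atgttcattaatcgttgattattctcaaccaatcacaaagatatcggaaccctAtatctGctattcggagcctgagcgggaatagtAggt
mt-Cytb: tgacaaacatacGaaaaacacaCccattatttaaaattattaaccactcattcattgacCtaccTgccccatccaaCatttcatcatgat
Gm11410: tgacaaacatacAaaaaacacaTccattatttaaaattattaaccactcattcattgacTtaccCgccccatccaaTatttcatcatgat
mt-Nd6: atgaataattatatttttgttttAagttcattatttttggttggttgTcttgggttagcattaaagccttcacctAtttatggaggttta
Gm11408: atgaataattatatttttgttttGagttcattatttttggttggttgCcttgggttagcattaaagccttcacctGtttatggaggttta

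Each gene was also searched base by base for stretches of 100 bases that occur letter for letter in an annotated nuclear transcript. Such stretches made up 99.5% of mt-Co2, 99.5% of mt-Atp6 and 99.9% of mt-Co3, against 60.8% of mt-Nd4, 30.8% of mt-Co1, 3.2% of mt-Nd2 and 0% of mt-Nd1, mt-Nd5, mt-Nd6 and mt-Cytb. mt-Nd3 and mt-Nd4l, also nearly without reads, were at 97.6% and 98.5%. mt-Atp8 was at 0% although it had 2 reads; the annotated transcripts leave a gap between Gm28661 and Gm10925, and the genome sequence there was not used here. With stretches of 50 bases the values were 62.2% for mt-Nd4, 51.1% for mt-Co1, 8.2% for mt-Nd2 and 7.6% for mt-Nd5. They were 0% for mt-Nd1, mt-Nd6, mt-Cytb and mt-Atp8, and 100%, 99.5% and 99.9% for mt-Co2, mt-Atp6 and mt-Co3. Whether the copies account for the low counts was not tested.

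**Figure D1:**
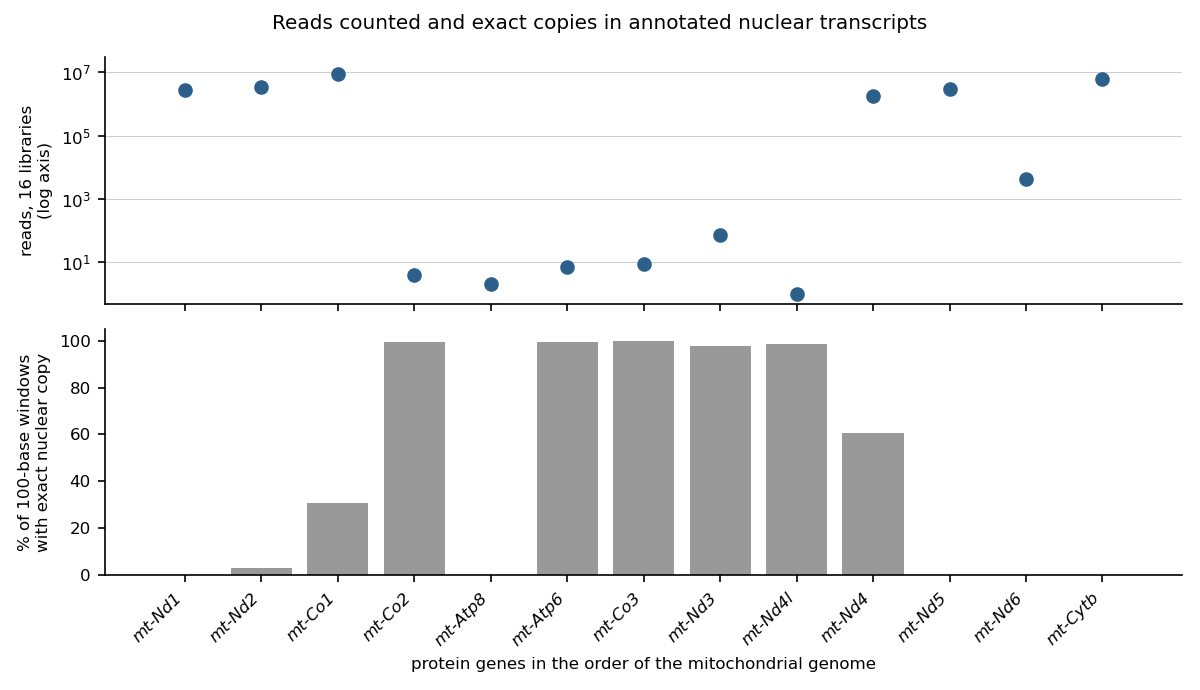
Reads over the 16 libraries (upper panel, log axis) and the percentage of 100-base stretches found letter for letter in annotated nuclear transcripts (lower panel), for the 13 protein genes in the order of the mitochondrial genome. The 6 genes from mt-Co2 to mt-Nd4l had 1 to 75 reads, and 5 of them were at 97.6% to 99.9%.

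Counts of so few reads in mt-Co2, mt-Co3 and mt-Atp6 allow no comparison of genotype or feeding. The table counts reads with several places of alignment in a line of its own, apart from the genes. This line held 34.7 ± 3.22% of all counts in fed KO and 43.3 ± 1.91% in fed WT livers, and 33.7 ± 1.13% in fasted KO and 43.2 ± 2.49% in fasted WT livers (SD, n = 4 each). KO and WT did not overlap in either feeding state, and the exact two-sided permutation p was 0.0286 in both, the smallest that 4 against 4 can give (adjusted p = 0.0714 over the 20 library tests made). Between feeding states p was 0.914 in WT and 0.714 in KO livers. The sources used here do not say from which genes these reads came, or how often such a read was counted.

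Per kilobase of gene, the level of the 7 tested genes in fed WT livers was highest for mt-Co1, at 17333 ± 1074 CPM per kb, followed by mt-Cytb at 15565 ± 352, mt-Nd2 at 9469 ± 311, mt-Nd1 at 7369 ± 488, mt-Nd4 at 4074 ± 86.8 and mt-Nd5 at 3951 ± 275 CPM per kb (SD, n = 4). mt-Nd6 stood far below the other tested genes, all of the heavy strand, at 28.4 ± 5.80 CPM per kb. With the length replaced by the number of positions where a 100-base stretch without an exact nuclear copy starts, the fed WT levels were 26779.5 for mt-Co1, 17039 for mt-Cytb, 11183 for mt-Nd4, 10813 for mt-Nd2, 8219.8 for mt-Nd1 and 4178 CPM per kb for mt-Nd5, so that mt-Nd4 moved ahead of mt-Nd2 and mt-Nd1. This second order depends on the stretch length of 100 bases, and levels for stretches of 50 bases were not computed. Per kilobase of gene, mt-Cytb was first in fasted WT livers, at 18772 ± 1944 CPM per kb, and mt-Co1 second, at 16186 ± 1673.

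Fed KO livers were set against fed WT livers to ask what the loss of Slc25a47 in hepatocytes does to these transcripts on chow. Of the 7 tested genes 6 fell and 0 rose, relative to the TMM scaling, where 16.9% of all 13905 tested genes fell and 14% rose (edgeR quasi-likelihood test, Benjamini-Hochberg adjusted p under 0.05); DESeq2 also had 6 and 0, and at unadjusted p under 0.05 edgeR had 7 lower and 0 higher. The genes of complex I and complex III fell by 23.8% to 33.3% where called, and mt-Co1 fell by 17.2%. The median log2 fold change of the 7 was -0.46, against -0.01 for all genes. Under scaling by all counts the direction turned for mt-Nd1, mt-Nd5 and mt-Co1, as given after the gene values.

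mt-Nd4, a proton-pumping subunit of complex I, had 3718, 3988, 3578 and 4381 CPM in the fed KO libraries, against 5666, 5454, 5601 and 5734 CPM in the fed WT libraries. Every fed KO library was below every fed WT library. The log2 fold change was -0.52 ± 0.08 (SE; edgeR adjusted p = 0.000146).

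mt-Nd2, another membrane subunit of complex I, had 6887, 6903, 6421 and 8330.0 CPM in fed KO and 9901, 9610.4, 9549 and 10255 CPM in fed WT livers. The groups did not overlap, and replicate 4 was the highest of the KO libraries. Its log2 fold change was -0.46 ± 0.08 (edgeR adjusted p = 0.000404).

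mt-Nd5, the subunit at the far end of the membrane arm, had 5509, 5379, 5042 and 6023 CPM in fed KO and 6524, 7728, 7329 and 7247 CPM in fed WT livers. The groups stood apart by less than their own width. On the log2 scale the difference was -0.39 ± 0.11 (edgeR adjusted p = 0.0123).

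mt-Nd1, the subunit next to the site where ubiquinone binds, had 5712, 6136, 5833 and 6781 CPM in fed KO and 7520.1, 7384, 6710.4 and 6596 CPM in fed WT livers. The highest KO library lay above the lower WT libraries. Its log2 fold change of -0.21 ± 0.09 did not pass the test (edgeR adjusted p = 0.0931).

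mt-Nd6, the light-strand subunit of complex I, had 6.64, 7.77, 10.9 and 14.1 CPM in fed KO and 16.9, 11.1, 13.5 and 17.5 CPM in fed WT livers, from 163 to 357 reads per library in the whole study. The groups overlapped. Its log2 fold change of -0.58 ± 0.20 passed narrowly (edgeR adjusted p = 0.0403) and no longer passed without any of 6 of the 8 libraries (fed KO replicates 1, 2 and 3 and fed WT replicates 1, 3 and 4), with adjusted p up to 0.108. Nor did it pass without the filter on low counts (edgeR adjusted p = 0.0963), with the libraries of the contrast alone (0.109), with library totals (0.153) or with all counts as the total (0.555).

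mt-Cytb, the sole mitochondrial gene of complex III, had 12379, 12615, 11750.3 and 14249 CPM in fed KO and 18400.0, 17709.7, 17570.4 and 17543 CPM in fed WT livers. KO and WT libraries were fully apart. The log2 fold change was -0.48 ± 0.08 (edgeR adjusted p = 0.000287).

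mt-Co1, the subunit of complex IV that reduces oxygen, had 21365, 22747, 20797 and 23816 CPM in fed KO and 27963, 28445, 25231 and 25479 CPM in fed WT livers. No KO library reached a WT library, and the difference was smaller in proportion than that of mt-Cytb. Its log2 fold change was -0.27 ± 0.08 (edgeR adjusted p = 0.0176); it did not pass when replicate 3 of fed KO (adjusted p = 0.0584) or replicate 2 of fed WT (0.055) was left out.

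In total 5 of the 7 genes had no overlap between fed KO and fed WT libraries, where 28.4% of all tested genes had none. As a scale-free measure the reads of the 10 genes were summed and divided by those of 70 nuclear subunits of the respiratory chain. The ratio was 7.51 ± 0.38 in fed KO and 9.31 ± 0.21 in fed WT livers (SD, n = 4 each; exact two-sided permutation p = 0.0286, the smallest possible; adjusted p = 0.0714 over 20 tests). The groups did not overlap, so the mitochondrial genes were lower in fed KO livers relative to their nuclear partners as well.

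The sign of the fed differences moved with the total, as the median of all genes did. With library totals of gene reads in place of TMM, the median of all genes moved to 0.21 and 3 of the 7 genes were called lower, mt-Nd2, mt-Nd4 and mt-Cytb, where 6.58% of all genes were lower and 35.1% higher; mt-Nd1 then stood at 0.01. A further total, chosen after seeing the data, took in all counts with the several-places line; there all genes had a median of 0.42, 0 of the 7 were lower (3.67% of all genes were, and 60.9% were higher) and mt-Nd1 was called higher at 0.22 (edgeR adjusted p = 0.0431), while mt-Co1 stood at 0.16 and mt-Nd5 at 0.04. Relative to the median of all genes, mt-Nd4 stood at -0.51, -0.52 and -0.52 under the 3 scalings and mt-Nd1 at -0.20 under each. mt-Nd5 stood at -0.38 under TMM and -0.39 with all counts. A change of total moves all genes by about the same amount, so these values had to stay nearly equal. They cannot show which total is right.

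Of the 10 hepatocyte markers 5 were called lower and 0 higher in fed KO livers, with a median log2 fold change of -0.32. Of all tested genes 16.9% were lower and 14% higher there. In fasted KO livers 4 of the 10 were lower and 0 higher, with a median of -0.28, where 14.5% of all tested genes were lower and 13.8% higher. Their summed levels, given above, did not overlap between fed KO and fed WT livers. Markers of other cell types also differed between fed KO and fed WT livers. The 8 stellate cell markers summed to 568 to 659 CPM in fed KO and 406 to 484 CPM in fed WT livers, and the 5 erythroid genes to 142 to 232 CPM in fed KO and 243 to 264 CPM in fed WT livers. Of the stellate cell markers 7 were called higher and 0 lower, with a median log2 fold change of 0.46. Of the 5 erythroid genes only 1 was called lower and 0 higher, with a median of -0.09, so their sum does not stand for each gene. All markers of both lists were detected in each group. Macrophage markers overlapped, at 329.9 to 396 CPM in fed KO and 244 to 405 CPM in fed WT livers. The endothelial, cholangiocyte and lymphocyte and neutrophil lists also overlapped, with cholangiocyte genes at 48.3 to 58.0 CPM in fed KO and 38.8 to 49.2 CPM in fed WT livers. The part of hepatocytes and of the other cell types in the lower levels of the mitochondrial genes was not tested.

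**Figure D2:**
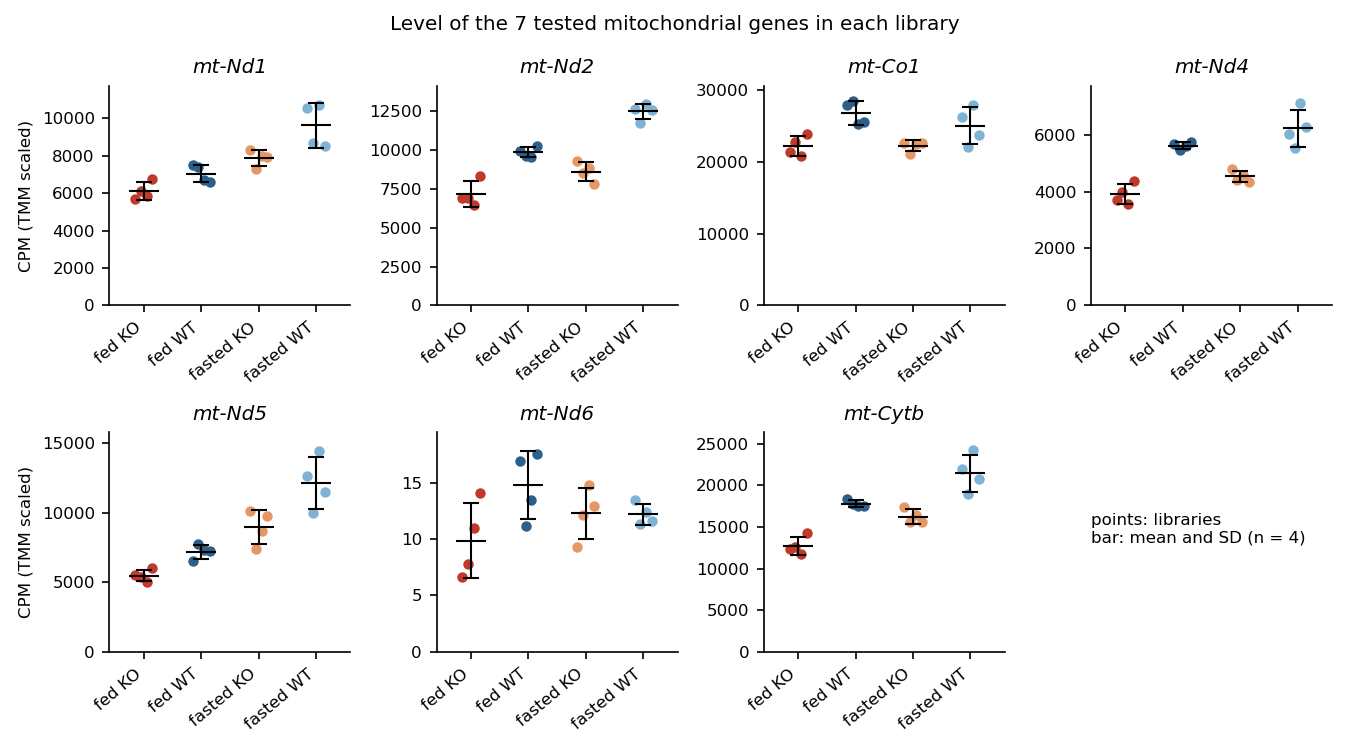
CPM of the 7 tested genes in each library, in fed KO, fed WT, fasted KO and fasted WT livers, with the mean and SD (n = 4). Fed KO libraries lay below fed WT libraries without overlap for mt-Nd2, mt-Nd4, mt-Nd5, mt-Cytb and mt-Co1 on this scale; with all counts as the total, mt-Nd5 and mt-Co1 stood at 0.04 and 0.16 on the log2 scale (edgeR adjusted p = 0.789 and 0.113).

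The comparison of fasted KO with fasted WT livers asked the same question after an overnight fast. Of the 7 tested genes 5 fell and 0 rose relative to the TMM scaling, mt-Nd1, mt-Nd2, mt-Nd4, mt-Nd5 and mt-Cytb, where 14.5% of all tested genes fell and 13.8% rose. DESeq2 also called 5 lower and 0 higher, and at unadjusted p under 0.05 edgeR had 5 lower and 0 higher. The called genes fell by 18.1% to 31.0%, and the median log2 fold change of the 7 was -0.40, against 0.01 for all genes. Under scaling by all counts mt-Nd1, mt-Cytb, mt-Co1 and mt-Nd6 stood above 0.

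mt-Nd2 had 9276, 8511, 8807 and 7813 CPM in the fasted KO libraries and 12642, 11744, 12909 and 12561 CPM in the fasted WT libraries. The gap between the groups was wider than the range within either. On the log2 scale the difference was -0.54 ± 0.08 (edgeR adjusted p = 0.000105).

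mt-Nd4 had 4796, 4402, 4584 and 4338 CPM in fasted KO and 6018, 5539, 7092 and 6260.5 CPM in fasted WT livers. KO and WT libraries were fully apart. edgeR gave a log2 fold change of -0.46 ± 0.08 (edgeR adjusted p = 0.000453).

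mt-Cytb had 17436, 15599, 16412 and 15547 CPM in fasted KO and 21979.9, 18936, 24235 and 20749.8 CPM in fasted WT livers. No KO library reached a WT library, and WT replicate 3 was the highest library of all. The log2 fold change was -0.40 ± 0.08 (edgeR adjusted p = 0.00136).

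mt-Nd5 had 10107, 7386, 8657 and 9754 CPM in fasted KO and 12654, 9990.3, 14409.8 and 11526 CPM in fasted WT livers. KO replicate 1 was just above WT replicate 2, so the groups overlapped there. Its log2 fold change was -0.44 ± 0.11 (edgeR adjusted p = 0.00644).

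mt-Nd1 had 8323, 7275, 7996 and 7922 CPM in fasted KO and 10563, 8682, 10732 and 8516 CPM in fasted WT livers. The groups did not overlap, and 2 of the WT libraries lay close to the KO range. The log2 fold change of -0.29 ± 0.09 passed the test (edgeR adjusted p = 0.023), and the call was lost without fasted KO replicate 2 (adjusted p = 0.0743), fasted WT replicate 1 (0.072) or fasted WT replicate 3 (0.0822).

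mt-Co1 had 22673, 21059, 22469.5 and 22625 CPM in fasted KO and 26281, 22128, 27913 and 23708 CPM in fasted WT livers. WT replicate 2 lay within the KO range. The log2 fold change of -0.17 ± 0.08 did not pass the test (edgeR adjusted p = 0.129), and without fasted WT replicates 2 and 4, the libraries with pancreatic transcripts, it was -0.29 (adjusted p = 0.0347).

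mt-Nd6 had 9.27, 12.1, 14.7 and 12.9 CPM in fasted KO and 13.4, 11.3, 12.4 and 11.6 CPM in fasted WT livers. The groups lay over each other. On the log2 scale the difference was 0.01 ± 0.20 (edgeR adjusted p = 0.981), with an SE above that of the heavy-strand genes, whose SE was 0.08 to 0.11.

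Of the 7 genes 4 had no overlap between fasted KO and fasted WT libraries, where 29.5% of all tested genes had none. With library totals 3 were called lower, again mt-Nd2, mt-Nd4 and mt-Cytb, where 6.49% of all genes were lower and 30.9% higher and the median of all genes stood at 0.20; mt-Co1 was then at 0.02. With all counts as the total 0 were lower and mt-Co1 was called higher at 0.24 (edgeR adjusted p = 0.0207), mt-Nd1, mt-Cytb and mt-Nd6 stood at 0.12, 0.00 and 0.42 (3.07% of all genes were lower and 58.9% higher), and the median of all genes at 0.42. The ratio of the 10 genes to the nuclear subunits was 9.26 ± 0.60 in fasted KO and 10.4 ± 1.26 in fasted WT livers, with overlap (exact two-sided permutation p = 0.2). The stellate cell markers summed to 585 to 636 CPM in fasted KO and 446 to 481 CPM in fasted WT livers, without overlap; their part in the result was not tested.

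The difference between the fasted and the fed genotype effect was tested as an interaction. With edgeR, 0 of the 7 genes were called, where 1.7% of all tested genes were, and 0 had an unadjusted p under 0.05; DESeq2 called 0, with 1 at an unadjusted p under 0.05. For the 6 heavy-strand genes the interaction ranged from -0.08 ± 0.13 for mt-Nd1 to 0.10 ± 0.12 for mt-Co1 on the log2 scale (SE). mt-Nd6 stood at 0.59 ± 0.29 (edgeR adjusted p = 0.309). That no gene passed does not show that the genotype effect was of equal size in both feeding states.

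Fasting was set against feeding within each genotype; both comparisons share their libraries with the genotype comparisons. In WT livers 4 of the 7 genes rose and 0 fell, mt-Nd5, mt-Nd1, mt-Nd2 and mt-Cytb, where 16.2% of all tested genes rose and 18.3% fell (DESeq2 also 4 and 0; at unadjusted p under 0.05 edgeR had 4 higher and 0 lower). In KO livers the called genes were again mt-Nd5, mt-Nd1, mt-Nd2 and mt-Cytb, 4 higher and 0 lower, where 21.1% of all tested genes rose and 20.3% fell (DESeq2 had 5 and 0, with mt-Nd4 added; at unadjusted p under 0.05 edgeR had 5 higher and 0 lower). Fasted and fed libraries did not overlap for 4 of the 7 genes in WT livers, where 32.8% of all tested genes had no overlap, and for 3 of 7 in KO livers, where 38.2% had none. The 4 called genes were above 0 under all scalings tried, in which the median of all genes moved by less than 0.1; with library totals 15.9% of all genes rose and 25.9% fell in KO livers.

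mt-Nd5 had the largest fasting difference of the 7 in both genotypes. It averaged 12145 ± 1863 CPM in fasted WT and 7207 ± 502 CPM in fed WT livers, a log2 fold change of 0.75 ± 0.11 (edgeR adjusted p = 3.67e-05). In KO livers it averaged 8976 ± 1227 CPM after the fast and 5488 ± 407 CPM in the fed state, at 0.71 ± 0.11 (adjusted p = 6.57e-05). In both genotypes every fasted library was above every fed library.

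mt-Nd1 averaged 9623 ± 1187 CPM in fasted WT and 7053 ± 467 CPM in fed WT livers, at a log2 fold change of 0.45 ± 0.09 (edgeR adjusted p = 0.000826). In KO livers it averaged 7879 ± 439 CPM in the fasted and 6115 ± 478 CPM in the fed state, at 0.37 ± 0.09 (adjusted p = 0.00346). Fasted and fed libraries did not overlap in either genotype.

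mt-Nd2 averaged 12464 ± 502 CPM in fasted WT and 9829 ± 323 CPM in fed WT livers, at 0.34 ± 0.08 (edgeR adjusted p = 0.00347), without overlap. In KO livers it averaged 8602 ± 613 CPM in the fasted and 7135 ± 827 CPM in the fed state, at 0.27 ± 0.08 (adjusted p = 0.0141). There the groups overlapped, and mt-Nd2 did not pass without replicate 3 of fed KO (adjusted p = 0.0538), without replicate 1 of fasted KO (0.0637) and with all counts as the total (0.0555).

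mt-Cytb averaged 21475 ± 2224 CPM in fasted WT and 17806 ± 403 CPM in fed WT livers, at 0.27 ± 0.08 (edgeR adjusted p = 0.017), and the call was lost without fasted WT replicate 3 (adjusted p = 0.0729) and with all counts as the total (0.0533). In KO livers it averaged 16249 ± 885 CPM in the fasted and 12748 ± 1065 CPM in the fed state, at 0.35 ± 0.08 (adjusted p = 0.00253). Fasted and fed libraries did not overlap in either genotype.

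The other 3 genes passed the test in neither genotype. mt-Co1 averaged 25008 ± 2585 CPM in fasted WT and 26779.5 ± 1659.8 CPM in fed WT livers, at -0.10 ± 0.08 (edgeR adjusted p = 0.384), and 22207 ± 769.8 CPM in fasted KO and 22181 ± 1363 CPM in fed KO livers, at 0.00 ± 0.08 (adjusted p = 0.99). mt-Nd4 stood at 0.15 ± 0.08 in WT (adjusted p = 0.179) and 0.21 ± 0.08 in KO livers (adjusted p = 0.0511). mt-Nd6 stood at -0.27 ± 0.20 in WT (adjusted p = 0.334) and 0.32 ± 0.20 in KO livers (adjusted p = 0.225). A p above the threshold does not show that these levels were equal.

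**Figure D3:**
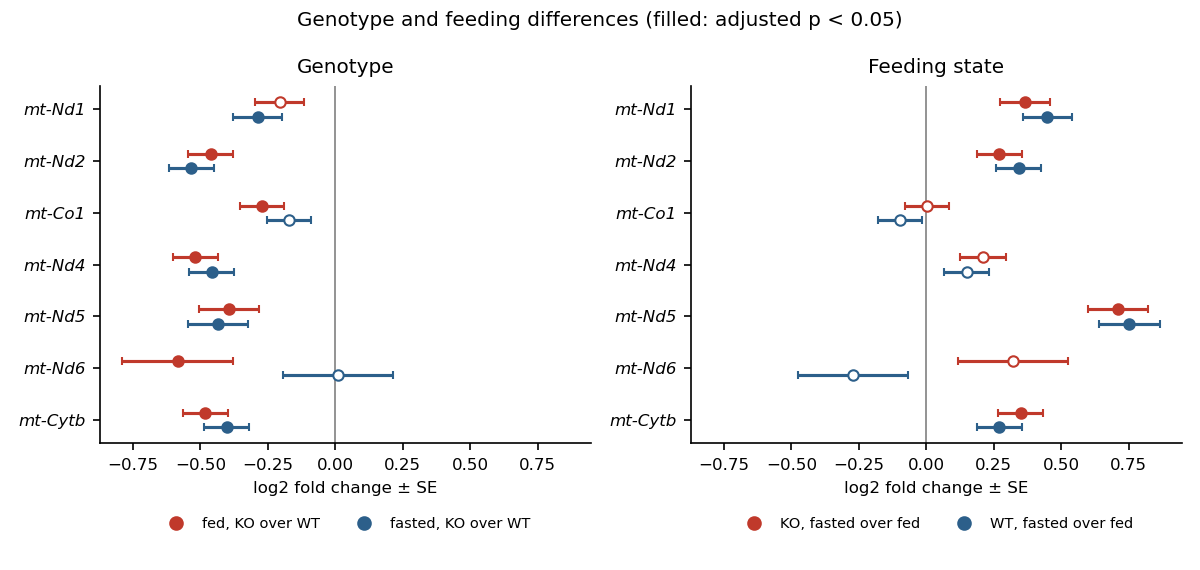
Log2 fold changes with SE of the 7 tested genes for genotype (left, fed and fasted, KO over WT) and feeding (right, KO and WT, fasted over fed), with filled points for edgeR adjusted p under 0.05. In the genotype panel mt-Nd2, mt-Nd4 and mt-Cytb were between -0.54 and -0.40 in both states under TMM scaling, and with all counts as the total fasted mt-Cytb stood at 0.00; in the feeding panel mt-Nd5 reached 0.75 in WT livers while mt-Co1 stayed between -0.10 and 0.00.

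Over the 4 groups, on the TMM scale, mt-Nd2, mt-Nd4 and mt-Cytb had the same order of mean level, fasted WT highest, then fed WT, fasted KO and fed KO. For mt-Cytb no neighbours in that order overlapped; for mt-Nd2 fasted KO and fed KO did, and for mt-Nd4 also fasted WT and fed WT. With all counts as the total that order was not kept: mt-Cytb in fasted KO minus fasted WT livers was 0.00 and in fasted WT minus fed WT livers 0.23. On the TMM scale mt-Nd1 and mt-Nd5 were highest in fasted WT, then fasted KO, fed WT and fed KO, and fasted KO overlapped fed WT for both. mt-Co1 ran from fed WT over fasted WT and fasted KO to fed KO, with overlap at each step. mt-Nd6 ran from fed WT over fasted KO and fasted WT to fed KO, again with overlap at each step.

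The make-up of the reads shifted together with these levels. Within the summed reads of the 10 genes, mt-Co1 held 38.5 ± 0.824% in fed KO and 36.0 ± 1.19% in fed WT livers, and 32.5 ± 0.88% in fasted KO and 28.8 ± 0.292% in fasted WT livers (SD, n = 4 each). mt-Nd5 held 9.53 ± 0.26% in fed KO and 9.71 ± 0.76% in fed WT livers, and 13.1 ± 1.30% in fasted KO and 13.9 ± 0.76% in fasted WT livers. These shares do not depend on the scaling between libraries, and for mt-Co1 no group overlapped another, with fed KO at 37.4% to 39.4% and fed WT at 35.0% to 37.3% the closest.

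mt-Nd1 held 10.6 ± 0.26% of these reads in fed KO and 9.48 ± 0.37% in fed WT livers, a larger share in KO livers although its CPM were not higher there. mt-Cytb held 22.1 ± 0.26% in fed KO and 24.0 ± 0.53% in fed WT livers, and mt-Nd4 6.79 ± 0.12% in fed KO and 7.56 ± 0.33% in fed WT livers. As a ratio chosen after its values were seen, there were 24.7 ± 0.97 mt-Nd5 reads per 100 mt-Co1 reads in fed KO and 27.0 ± 2.57 in fed WT livers, and 40.3 ± 4.35 in fasted KO and 48.4 ± 2.65 in fasted WT livers. It is given as a description, with no test.

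**Figure D4:**
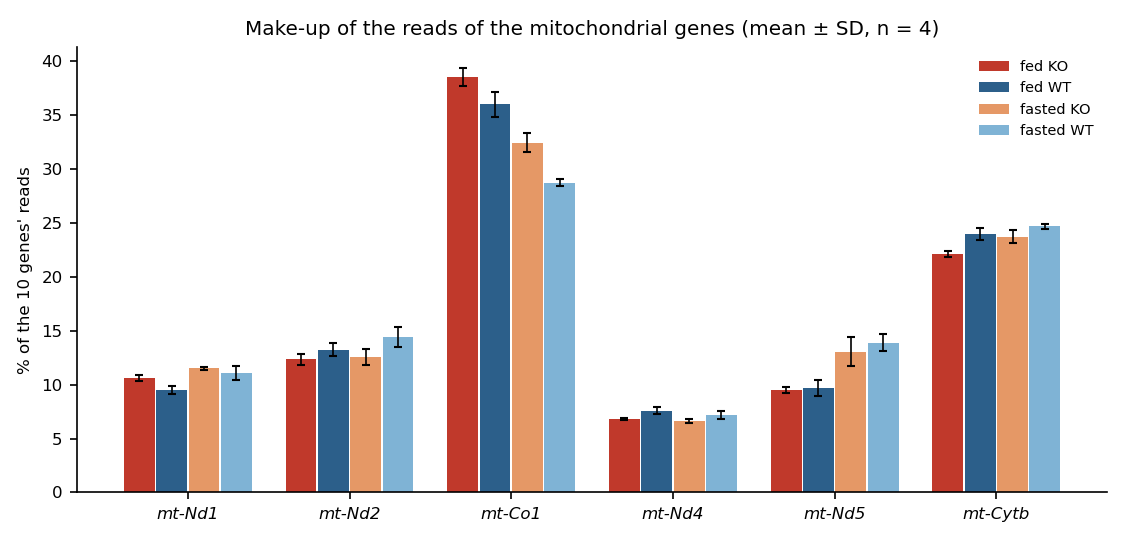
Share of the summed reads of the 10 genes held by each of 6 heavy-strand genes, in fed KO, fed WT, fasted KO and fasted WT livers (mean and SD, n = 4). mt-Co1 was at 38.5% in fed KO and 28.8% in fasted WT livers, and mt-Nd5 was at 9.53% and 9.71% in the fed and 13.1% and 13.9% in the fasted groups.

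The summed reads of the 10 genes made up 6.35 ± 0.25% of gene reads in fed KO and 7.03 ± 0.18% in fed WT livers (SD, n = 4 each), without overlap (exact two-sided permutation p = 0.0286, the smallest possible; adjusted p = 0.0714 over 20 tests). After the fast they made up 7.14 ± 0.29% in KO and 7.97 ± 0.67% in WT livers, with overlap (exact p = 0.114). Fasting gave p = 0.0286 in KO and 0.0571 in WT livers by the same exact permutation test. As a share of all counts, the 10 genes were instead at 3.83 ± 0.25% in fed KO and 3.67 ± 0.18% in fed WT livers (exact permutation p = 0.4), and at 4.37 ± 0.23% in fasted KO and 4.18 ± 0.49% in fasted WT livers (exact permutation p = 0.514).

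**Figure D5:**
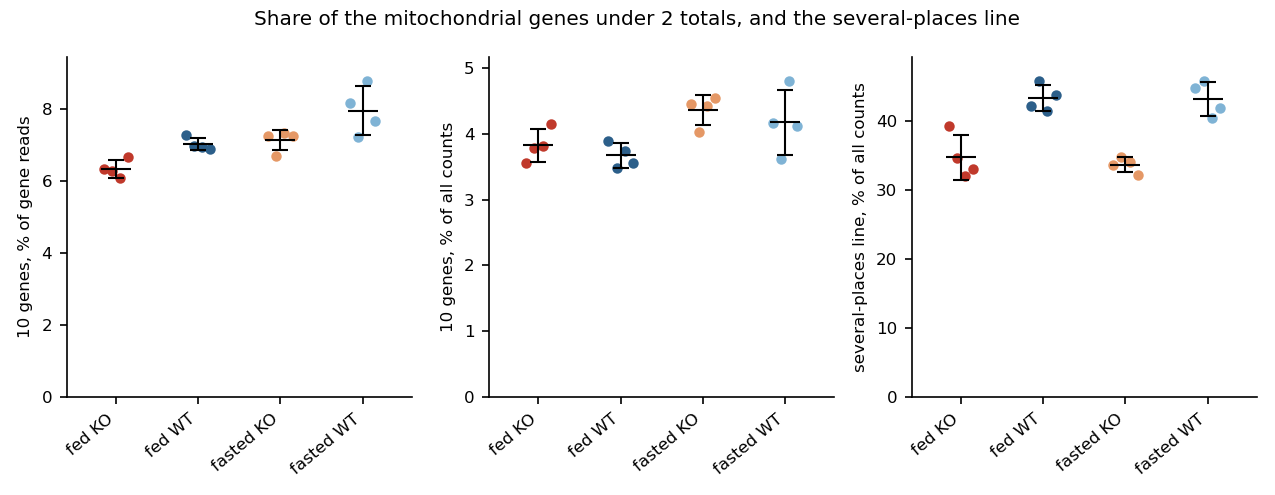
Summed reads of the 10 genes as a percentage of gene reads (left) and of all counts (middle), and the line of reads with several places as a percentage of all counts (right), in each library of the 4 groups with the mean and SD (n = 4). Fed KO was below fed WT on the left (6.35% and 7.03%) and not in the middle (3.83% and 3.67%), and on the right KO libraries were below WT libraries in both states.

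Within groups the heavy-strand genes moved together from library to library. After the group means were taken off, the 15 pairs among the 6 heavy-strand genes had correlations of log2 CPM from 0.41 to 0.93 over the 16 libraries, with mt-Nd1 and mt-Co1 the closest pair. The 6 pairs with mt-Nd6 ran from -0.05 to 0.35. Genes of a library share its scaling and depth, and mt-Nd6 has few reads, so these values are a description. Over all 16 libraries, the 5 genes of the nucleus whose log2 CPM was most like the mean of the 7 tested genes were Casc4 (Pearson r = 0.94), Fam210b (0.93), Azgp1 (0.93), the coagulation factor IX gene F9 (0.92) and the amino acid transporter gene Slc38a4 (0.92), where the median of 13893 genes was -0.02 and the range -0.95 to 0.94.

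The nuclear genes that transcribe the mitochondrial genome were called in both directions in KO livers under TMM, in counts near the shares of all genes. Their part in the levels of the mitochondrial genes was not tested. Of 10 tested, 2 were higher and 2 lower in fed KO and 1 and 1 in fasted KO livers relative to WT. Of all tested genes 14% were higher and 16.9% lower in fed KO, and 13.8% and 14.5% in fasted KO livers. The counts of this and the following lists under TMM are to be read beside these shares. Polrmt, the mitochondrial RNA polymerase, rose on the log2 scale by 0.41 ± 0.08 in fed and 0.57 ± 0.08 in fasted KO livers, at 25.9 ± 1.12 CPM in fed KO and 19.5 ± 1.68 CPM in fed WT livers. Tfam, which packs and bends the genome at its promoters, fell by 0.23 ± 0.08 in fed and 0.30 ± 0.08 in fasted KO livers (edgeR adjusted p = 0.0403 and 0.00967); with library totals it stood at -0.01 and -0.11 and was not called. Tfb2m, the promoter-melting factor, rose by 0.44 ± 0.11 in fed KO livers, and Mterf2, of the termination factor family, fell by 0.68 ± 0.23 there at 1.44 ± 0.260 CPM in fed KO and 2.32 ± 0.332 CPM in fed WT livers.

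Of 12 genes of mitochondrial DNA replication and packing, 2 were higher and 1 lower in fed KO and 5 and 1 in fasted KO livers. Twnk, the replicative helicase, rose by 0.67 ± 0.10 in fasted KO livers. Top1mt, a topoisomerase, rose by 0.30 ± 0.08 in fed and 0.31 ± 0.08 in fasted KO livers, and Atad3a, a membrane protein tied to the nucleoid, by 0.24 ± 0.08 and 0.34 ± 0.08. Ssbp1, which coats single-stranded DNA, fell by 0.26 ± 0.08 in fed and 0.27 ± 0.08 in fasted KO livers.

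Of 22 genes that process or stabilise mitochondrial RNA, 1 was higher and 2 lower in fed KO and 7 and 1 in fasted KO livers. Hsd17b10, a part of the enzyme that cuts tRNAs out of the primary transcript and also a dehydrogenase of isoleucine breakdown, fell by 0.45 ± 0.06 in fed and 0.70 ± 0.06 in fasted KO livers. It stood at 231 ± 14.7 CPM in fasted KO and 376 ± 10.1 CPM in fasted WT livers, against 79.4 ± 0.261 CPM in fed KO and 108 ± 3.63 CPM in fed WT livers. Lrpprc, which protects mitochondrial mRNAs, rose by 0.23 ± 0.06 in fasted KO livers, Ptcd1, a pentatricopeptide repeat protein, by 0.65 ± 0.09 and Supv3l1, a helicase of RNA turnover, by 0.43 ± 0.08. In fed KO livers Rexo2, an oligoribonuclease, rose by 0.26 ± 0.08, and 1110008L16Rik fell by 0.26 ± 0.09.

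Among 9 nuclear regulators of mitochondrial genes, 2 were higher and 0 lower among fed KO livers (DESeq2 3 and 0; at unadjusted p under 0.05 edgeR had 4 and 0) and 3 and 1 in fasted KO livers. Nfe2l2, the oxidative stress factor NRF2, rose by 0.71 ± 0.10 in fed and 0.33 ± 0.10 in fasted KO livers, and Yy1 by 0.39 ± 0.10 in fed KO livers. Ppargc1a, the coactivator PGC-1 alpha that rises in the fasted liver, fell by 0.87 ± 0.28 in fasted KO livers, at 19.9 ± 7.29 CPM in fasted KO and 36.2 ± 9.48 CPM in fasted WT livers, and its relative Pprc1 rose by 0.95 ± 0.29 there. Nrf1 rose by 0.36 ± 0.11 in fasted KO livers.

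Of 46 factors that translate or assemble the mitochondrial proteins, 1 was higher and 6 lower in fed KO and 8 and 4 in fasted KO livers (DESeq2 in fasted KO livers 5 and 7, and edgeR with DESeq2 size factors 5 and 6). Surf1, an assembly factor of complex IV, fell by 0.33 ± 0.07 in fed and 0.44 ± 0.07 in fasted KO livers, and Uqcc1, of complex III, by 0.25 ± 0.07 and 0.29 ± 0.07. Ndufaf3, of complex I, fell by 0.50 ± 0.12 and the release factor gene Mtrf1l by 0.47 ± 0.13 in fed KO livers. In fasted KO livers Mtif3, a translation initiation factor, rose by 0.54 ± 0.10 and Cox20, of complex IV, fell by 0.35 ± 0.09.

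The 70 nuclear subunits of the chain had 1 higher and 20 lower in fed KO and 0 and 29 in fasted KO livers under TMM, but 19 and 3 and 1 and 13 with library totals (DESeq2 in fasted KO livers 0 and 36; at unadjusted p under 0.05 edgeR had 0 and 44). With all counts as the total the 70 subunits had 55 higher and 0 lower in fed and 31 and 1 in fasted KO livers. Of all genes 60.9% were then higher and 3.67% lower in fed, and 58.9% and 3.07% in fasted KO livers. Under TMM the median of the subunits was -0.10 in the fed and -0.19 in the fasted comparison, against -0.46 and -0.40 for the mitochondrial genes. Per library, the ratio of the summed reads of both sets gave an exact two-sided permutation p of 0.0286 for fed and 0.2 for fasted livers. The falls that follow are those under TMM. Cox6b1, of complex IV, fell by 0.45 ± 0.08 in fed and 0.60 ± 0.08 in fasted KO livers, and stood at 96.9 ± 11.3 CPM in fasted KO and 147 ± 8.67 CPM in fasted WT livers. The complex I subunits Ndufb3 and Ndufb8 fell by 0.42 ± 0.07 and 0.41 ± 0.07 in fed KO livers, and Ndufa5 of complex I and Uqcrb of complex III by 0.54 ± 0.07 and 0.46 ± 0.07 in fasted KO livers.

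The other 5 lists moved upwards with library totals too, as all genes did. With that scaling 35.1% of all genes were higher and 6.58% lower in fed KO, and 30.9% and 6.49% in fasted KO livers. Transcription then had 2 higher and 0 lower in fed and 4 and 0 in fasted KO livers, replication 6 and 0 and 8 and 0, RNA processing 13 and 1 and 13 and 1, the regulators 6 and 0 and 7 and 0, and translation and assembly 16 and 0 and 18 and 1. The falls of Hsd17b10 in both states and of Surf1 in fasted KO livers were called under both TMM and library totals. The falls of Ssbp1, Mterf2, 1110008L16Rik, Uqcc1, Ndufaf3, Mtrf1l, Cox20 and Ppargc1a, and of Surf1 in fed KO livers, were not called with library totals. With all counts as the total, RNA processing had 20 higher and 0 lower in fed and 20 and 1 in fasted KO livers. Translation and assembly had 33 and 0 in fed and 35 and 0 in fasted KO livers. The fed fall of Hsd17b10 and the fasted fall of Surf1 were thus not called there. Of all genes 60.9% were higher and 3.67% lower in fed, and 58.9% and 3.07% in fasted KO livers with that total.

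With fasting, 4 of the 10 transcription genes rose and 0 fell in WT and 5 and 0 in KO livers (DESeq2 the same counts; at unadjusted p under 0.05 edgeR had 4 and 1 in WT and 5 and 0 in KO livers; with library totals 4 and 1 in WT and 2 and 0 in KO livers), where 16.2% of all genes rose and 18.3% fell in WT and 21.1% rose and 20.3% fell in KO livers. Tfam rose by 0.30 ± 0.08 in WT and 0.23 ± 0.08 in KO livers after the fast (in KO livers not called with library totals, at 0.15), and Hsd17b10 by 1.79 ± 0.06 and 1.54 ± 0.06. Ppargc1a rose by 1.40 ± 0.28 in WT livers; its value in KO livers was 0.58 ± 0.28 (edgeR adjusted p = 0.118). The nuclear chain subunits had 7 higher and 2 lower in WT and 2 higher and 17 lower in KO livers after the fast under TMM, but 5 and 6 in WT and 0 and 27 in KO livers with library totals. Of all 13905 tested genes, 1861 rose and 2893 fell in WT livers with library totals, and 15.9% rose and 25.9% fell in KO livers.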

How the data were processed

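Whole-liver RNA was made into stranded mRNA libraries, per the labels' protocols. The deposited file holds raw counts of reads per gene, not normalized by the authors; the submitters' processing notes name cutadapt 1.8, STAR 2.5.3a, HTSeq 0.9.1 and the build GRCm38. Neither the annotation release nor the strand setting of the counting is stated in the labels or notes. The 5 summary lines stayed out of library sizes and tests; the line of reads with several places held 32.0% to 45.8% of all counts.

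Counts were fitted in edgeR 4.0.16 (R 4.3.3; TMM, low-count filter by group, robust quasi-likelihood F test) over all 16 libraries with 1 coefficient per group and 12 residual degrees of freedom. Of 53714 genes 13905 were tested, p-values were Benjamini-Hochberg adjusted over them, and 0.05 was the threshold. SE is the absolute log2 fold change over the square root of F; log2 CPM used a prior count of 2. For shares and ratios per library, exact two-sided permutation tests covered 5 measures in 4 contrasts, adjusted over 20 tests. The fit was tested on simulated counts. Alternatives were DESeq2 1.42.0, other scalings, no filter, a replicate block and leaving out libraries. Sequences are GENCODE M21 transcripts; copies were sought with blastn 2.17.0 (at least 85% identity) among 141730 nuclear transcripts. All 10 genes are reported; from each gene list up to 4 called genes with the smallest p per genotype comparison were named, and the 5 most similar nuclear genes. The genes and lists were chosen with earlier results of these data known.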

Additional observations from a re-analysis of the deposited data

Results flagged for a closer look

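In 4 of the 48 groups of 4 libraries checked, 1 library stood apart from the other 3 beyond the critical value of Dixon's test; chance gives about 1 in 20. mt-Co1 had 21059 CPM in fasted KO replicate 2, and 22469.5 to 22673 CPM in the other fasted KO libraries. The same library had 6.72% of its gene reads on the 10 genes, against 7.26% to 7.33% in the other fasted KO libraries. The mitochondrial ribosomal RNA genes held 3.66e-06% of gene reads in fed WT replicate 2, against 8.95e-06% to 9.73e-06% in the other fed WT libraries. In fasted WT replicate 3 they were at 0%, against 4.76e-06% to 5.04e-06% in the other fasted WT libraries. The ribosomal values rest on at most 4 reads per gene and library.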

How the results depend on the processing

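Under DESeq2, its size factors, scaling over nuclear genes, no filter, no robust estimation, the contrast's libraries alone or the replicate block, counts of calls among the 7 genes stayed within 1.5 times. The interaction over all genes had 149 higher and 88 lower with edgeR, 285 and 245 with DESeq2, 88 and 100 with library totals, 72 and 61 with all counts, 39 and 33 without fasted WT replicates 2 and 4, and 51 to 353 and 34 to 171 leaving out 1 library. DESeq2 had 2 RNA processing genes higher in fed KO livers, against 1. The sign of genotype differences moved with the total, as the median of all genes did (0.21 and 0.20 with library totals, 0.42 with all counts). Relative to that median fasted mt-Cytb stood at -0.41 under TMM and -0.42 with all counts, values that a change of total leaves nearly equal by construction. With library totals 3 genes were lower in fed and 3 in fasted KO livers, fed mt-Nd1 stood at 0.0141, fasted mt-Co1 at 0.0168 and mt-Co1 with fasting in KO livers at -0.0773. With all counts, a setting chosen after seeing the data, 1 was higher and 0 lower in both states; mt-Nd1 (0.22), mt-Nd5 (0.0357) and mt-Co1 (0.16) turned in the fed, mt-Nd1 (0.12), mt-Cytb (0.0043) and mt-Co1 (0.24) in the fasted comparison, and mt-Co1 with fasting in KO livers stood at -0.0582. As a share of all counts the 10 genes differed by 0.156 points (fed) and 0.186 points (fasted), and by 0.536 with fasting in KO livers (exact permutation p = 0.0571). The cause was not tested.

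The values closest to 0 changed sign: fasted mt-Nd6 was -0.0067 with DESeq2 size factors, -0.0067 with its Wald test, and -0.0026 with the replicate block; mt-Co1 with fasting in KO livers was -0.0039 with DESeq2 size factors, -0.0039 with its Wald test and -0.0018 without a filter. The deviations of same-numbered libraries from their group means had correlations from -0.17 to 0.25. No pairing by number was seen, which does not exclude one, and the block changed no call of the 7 genes. Without fasted WT replicates 2 and 4, fasted mt-Nd6 stood at -0.0734, mt-Co1 with fasting in WT livers at 0.0149, the interactions of mt-Nd4, mt-Cytb and mt-Co1 at -0.0111, -0.0235 and -0.0128, and the several-places line differed by -8.88 points (6 libraries cannot reach 0.05).

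Leaving out 1 library at a time gave 4 to 6 genes lower in fed KO, 4 to 5 in fasted KO, 3 to 4 higher with fasting in WT and 3 to 6 in KO livers. Ranges that crossed 0 were -0.0282 to 0.0375 for mt-Co1 with fasting in KO livers, -0.0907 to 0.0961 for fasted mt-Nd6, and in the interaction -0.148 to 0.0102 for mt-Nd2, -0.0054 to 0.130 for mt-Nd4 and -0.142 to 0.0505 for mt-Nd5. With 3 libraries against 4 the exact permutation test cannot pass 0.05. The share of the 10 genes then differed by -0.797 to -0.597 points (fed genotype) and 0.707 to 0.935 (fasting, KO), their ratio to nuclear subunits by -1.95 to -1.64 and 1.51 to 2.01, and the ribosomal share by 8.54e-06 to 1.25e-05 and -2.04e-05 to -1.65e-05 points. The several-places line differed by -10.1 to -7.64 (fed genotype), -10.4 to -8.65 (fasted genotype), -0.985 to 0.804 (fasting, WT) and -1.99 to 0.445 points (fasting, KO). The chromosome 1 copies differed by -1.22e-05 to 4.96e-07 (fasted genotype) and -9.28e-06 to 3.42e-06 points (fasting, WT). Depth limits mt-Nd6; the cause of the few reads of mt-Co2, mt-Co3 and mt-Atp6 was not tested.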
